A study of Homo sapiens with 6 samples.

Results

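MDA-MB-231, an established line of triple-negative human breast cancer, was sequenced as 3 control libraries and 3 libraries in which VASP was knocked down, and 57 genes of the G1/S transition and of DNA replication were read out of the 61155 gene symbols of the deposited table. VASP encodes an actin-binding protein that keeps filaments growing at the cell's leading edge and at its adhesions. The 57 members were given by name, and were chosen with earlier results of these data known. They include cyclins, cyclin-dependent kinases and the phosphatase that activates them, the E2F and retinoblastoma proteins, and origin licensing and firing factors. Replicative polymerases, the sliding clamp and its loader, and enzymes that supply deoxynucleotides are also among them. The titles call the groups plko (the name of a short hairpin vector) and shVASP. The other labels describe negative control siRNA and siRNA against VASP, delivered to cells by Lipofectamine 2000. Both descriptions give the same grouping. Cells were taken 48 hours after transfection. The headings of the 3 control columns all extend the title of the first control, so the controls are numbered here by heading and not tied to a single title. Nothing in the labels says that the 3 libraries of a group came from separate cultures, and the controls may be repeats of 1 culture, so the p-values speak of the variation among these 6 libraries, which may be technical.

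Cells enter S phase in steps. Cyclin D with CDK4 or CDK6, then cyclin E with CDK2, phosphorylate the retinoblastoma protein and its relatives, which releases E2F transcription factors onto the genes for replication proteins. In G1 the origin recognition complex, CDC6 and CDT1 load the MCM2-7 helicase onto DNA, and in S phase the DBF4-dependent kinase CDC7 and cyclin-dependent kinases convert it, with CDC45 and the GINS complex, into a running fork. Most of these mRNAs are known to oscillate through the cell cycle. In bulk RNA, a different share of cells in a phase and a different amount of RNA per cell cannot be told apart.

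The 6 libraries held 28856610 to 30055503 counted fragments, and values below are in CPM (counts scaled to library size, here with TMM factors). VASP stood at 156, 174 and 163 CPM in the control libraries and at 12.9, 12.8 and 12.3 CPM in the knockdown libraries, 12.9-fold lower (log2 fold change -3.69, SE 0.06). The line's mesenchymal-like genes were high in every library, with VIM between 1631 and 1738 CPM. Of the luminal markers ESR1, PGR, GATA3 and CDH1 stayed under 1 CPM and FOXA1 and EPCAM between 4.77 and 6.86 CPM, while KRT8 (512 to 556 CPM) and KRT18 (210.3 to 243 CPM) were high. Of the fibroblast genes DCN and LUM were at 0 and COL1A1 at 5.57 to 6.48 CPM in every library. Libraries of a group differed by more than sampling noise, as the chi-square of their counts, divided by its degrees of freedom, was 5.11 to 8.67 within groups and 19.3 to 25.3 between them. Mitochondrial transcripts took 12.02% to 15.1% of the counts, with overlapping groups.

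Of the 57 members, 56 were expressed enough to be tested, and their mean control level ran from 4.07 to 493.5 CPM. In VASP knockdown 30 of the 56 rose and 2 fell, POLD1 and TK1, by edgeR's quasi-likelihood test at an adjusted p under 0.05, Benjamini-Hochberg over all 16633 genes tested; every adjusted p below is from this test unless another is named. Those shares, 53.6% and 3.57%, stand beside 18.9% of all genes higher and 18.3% lower. The 30 risers were modest in size, 1.11-fold to 1.62-fold higher with a median of 1.21-fold, and 11 of them rose by 1.3-fold or more. In 27 members all 3 knockdown libraries lay above all 3 controls, and in TK1 all lay below, beside 24.1% and 23.5% of all genes. The median log2 fold change was 0.16 over the members and -0.01 over all genes tested. The 24 members that did not pass had a median of 0.05, 15 of them positive and 9 negative, with 95% intervals that together reached from -0.35 to 0.37.

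The wide spread within the controls limits how the small differences can be read. Control library 1 was the lowest of the 3 controls in 44 of the 56 members (78.6%; 33.3% over all genes) and control library 3 the highest in 51 (91.1%; 35.6%). Summed over the members, the controls held 4284, 4470 and 4856 CPM and the knockdowns 4930, 4895 and 5128 CPM. Without control library 3 the count of members that rose was 36, and without control library 1 it was 23. It was 24 without control library 2, and 26, 28 and 23 without knockdown libraries 1, 2 and 3. The part of this order among the controls in the results was not tested.

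**Figure D1:**
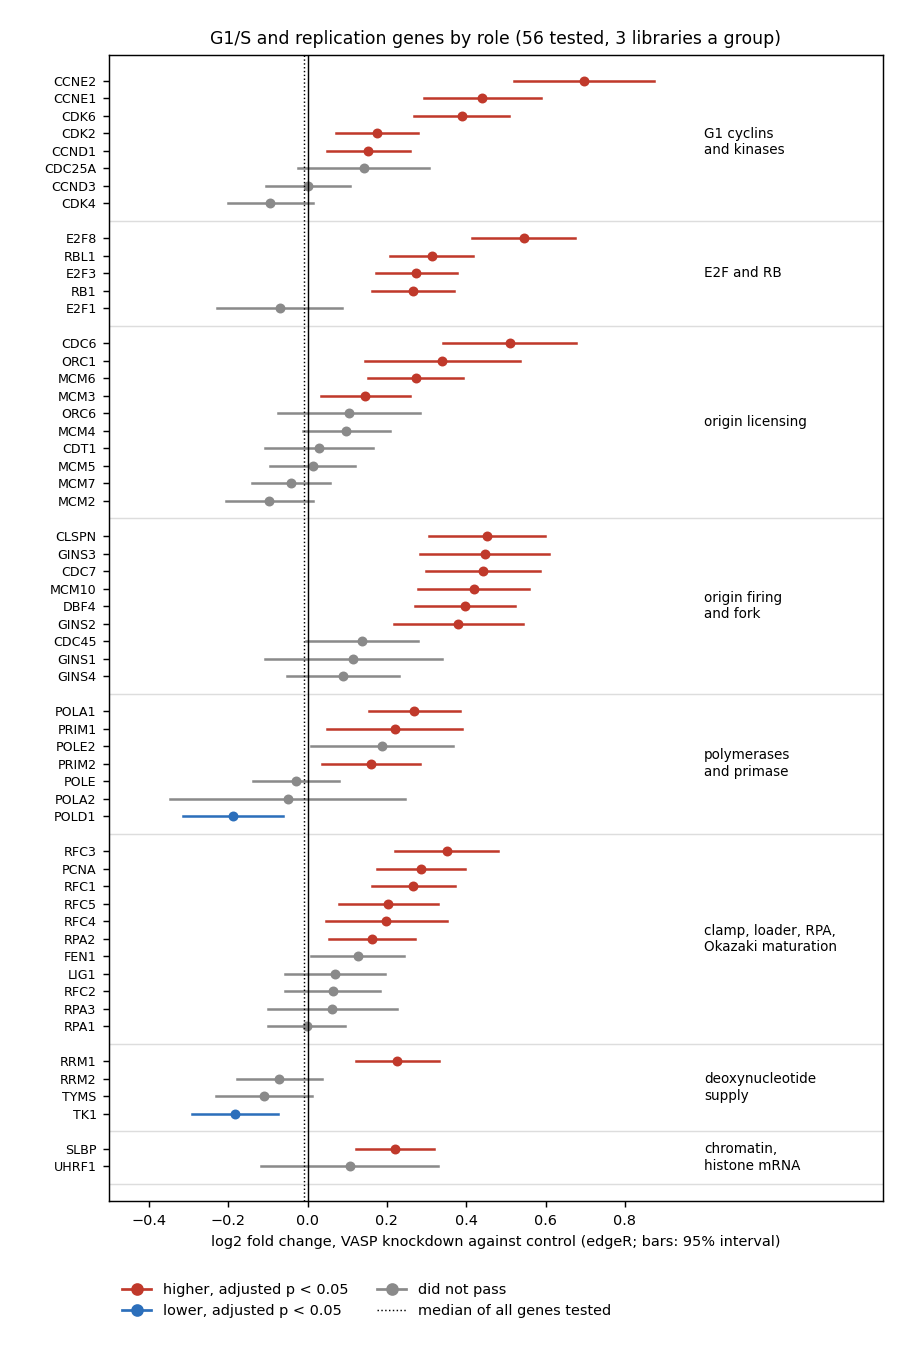
Log2 fold change of each tested member, VASP knockdown against control, with its 95% interval (edgeR, 3 libraries a group), ordered within 8 roles; red marks members higher and blue members lower at an adjusted p under 0.05, and the dotted line is the median of all genes tested. CCNE2 lies farthest right at 0.70 and POLD1 farthest left at -0.19, and 30 of the 56 points are red.

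E2F-type promoter words were frequent among the members with a listed promoter, whether or not they rose. In the RefSeq promoters of GRCh38.p14, 250 bases before to 50 after 1 listed start per gene, 48 members were found. The listed start need not be the gene's first. For RB1, a riser without these words, the stretch (chr13:48476290-48476449) lies far inside the gene, which begins at 48303726. Of these, 24 (50%) held at least 1 of the words TTTCCCGC, TTTCGCGC, TTTGCCGC or TTTGGCGC on either strand, beside 3.33% of all 27305 promoters of this length. The words stood in 11 of the 25 risers with a promoter (44.0%) and in 12 of the 22 tested members with a promoter that did not rise (54.5%). The risers CCND1, CCNE2, CDK2, E2F8 and RPA2 were not found. The largest rises, CCNE2 (log2 0.70) and E2F8 (log2 0.55), are therefore outside this comparison. CCAAT was present in 24 members (50%; 35.7% of all promoters), the GC box GGGCGG in 34 (70.8%; 44.6%), and TTTGAA in 3 (6.25%; 15.4%). The words can overlap one another, and a match describes letters, not a bound site. The 6 stretches of 160 bases that end at the base before the start are printed 5′ to 3′ on the gene's strand, with the E2F-type words in capitals, because they set risers beside members that did not pass, all chosen among those that hold the words. MCM6 (chr2:135876444-135876603, minus strand), RBL1 (chr20:37095998-37096157, minus strand) and PCNA (chr20:5126623-5126782, minus strand) rose. MCM7 (chr7:100101398-100101557, minus strand), E2F1 (chr20:33686386-33686545, minus strand) and CDT1 (chr16:88803629-88803788, plus strand) did not pass.
MCM6: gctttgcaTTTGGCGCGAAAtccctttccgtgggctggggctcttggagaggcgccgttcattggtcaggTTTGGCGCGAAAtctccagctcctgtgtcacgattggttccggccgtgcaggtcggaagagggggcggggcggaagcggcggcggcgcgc
RBL1: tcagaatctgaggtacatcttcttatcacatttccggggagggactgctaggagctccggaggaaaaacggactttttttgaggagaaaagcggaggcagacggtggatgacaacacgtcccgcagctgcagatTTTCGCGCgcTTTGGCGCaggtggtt
PCNA: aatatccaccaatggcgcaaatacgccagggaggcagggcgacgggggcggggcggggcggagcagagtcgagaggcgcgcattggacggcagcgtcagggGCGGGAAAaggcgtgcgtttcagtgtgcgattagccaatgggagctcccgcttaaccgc
MCM7: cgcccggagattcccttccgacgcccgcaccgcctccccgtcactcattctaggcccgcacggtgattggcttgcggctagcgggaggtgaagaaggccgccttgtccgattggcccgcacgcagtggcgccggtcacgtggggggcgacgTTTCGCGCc
E2F1: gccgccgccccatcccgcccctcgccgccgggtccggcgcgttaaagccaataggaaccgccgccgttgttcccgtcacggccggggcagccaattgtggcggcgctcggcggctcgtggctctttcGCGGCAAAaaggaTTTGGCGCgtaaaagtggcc
CDT1: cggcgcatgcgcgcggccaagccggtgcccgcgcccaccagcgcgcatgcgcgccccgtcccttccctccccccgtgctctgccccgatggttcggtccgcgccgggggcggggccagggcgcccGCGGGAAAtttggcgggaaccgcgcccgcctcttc
In MCM6 the words form 2 runs in which words on both strands overlap.

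Among the G1 cyclins and their kinases, 5 of 8 rose: both E cyclins, CDK2, CDK6 and CCND1. CCNE2, cyclin E2, had the largest fold change of the members tested. It was counted 287, 326 and 366 times in the control libraries and 551, 520 and 562 times in the knockdown libraries, which is 9.84, 11.2 and 12.7 CPM against 17.96, 17.6 and 19.1 CPM. All 3 knockdown libraries lay above every control, with means of 11.2 ± 1.41 and 18.2 ± 0.805 CPM (SD, n = 3 each), a 1.62-fold rise (log2 0.70, SE 0.09, edgeR adjusted p = 1.2e-06). Of the exon bases of CCNE2, 37.1% also belong to other symbols, INTS8 among them, and fragments there were not counted.

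CCNE1, cyclin E1, the other activator of CDK2 (chr19:29811991-29824312, plus strand, GRCh38), stood at 14.1, 13.4 and 14.9 CPM in the controls and 19.0, 19.2 and 19.3 CPM in the knockdowns. The knockdown libraries were nearly identical and all above the controls (14.1 ± 0.729 to 19.2 ± 0.166 CPM, 1.36-fold, log2 0.44, SE 0.07, edgeR adjusted p = 4.2e-05). CDK2 itself, the kinase of cyclin E, also rose, from 104, 112 and 112 CPM to 120.2, 119.7 and 130.1 CPM (1.13-fold, edgeR adjusted p = 0.008). Here too the groups did not overlap.

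CDK6 and CDK4 are alternative partners of the D cyclins, of which CDK6 passed the test and CDK4 did not. CDK6 measured 42.3, 40.1 and 45.6 CPM in the controls and 57.1, 52.8 and 57.7 CPM in the knockdowns, with no overlap (42.7 ± 2.78 to 55.9 ± 2.63 CPM, 1.31-fold, log2 0.39, SE 0.06, edgeR adjusted p = 1.6e-05). CDK4 measured 92.9, 92.3 and 100.2 CPM and 93.9, 88.4 and 85.1 CPM, with overlapping groups (log2 difference -0.09, 95% interval -0.20 to 0.01, edgeR adjusted p = 0.16). Of its exon bases, 44.2% are shared with TSPAN31 and were not counted. CCND1, cyclin D1, had the highest level per length of this role, 102 ± 5.35 CPM per kb of exon in the controls. It stood at 475, 482 and 523 CPM and 559, 529 and 558 CPM (1.11-fold, edgeR adjusted p = 0.02). The groups did not overlap, but the call was lost without control library 1 (adjusted p = 0.081) or 2 (0.091), or knockdown library 1 (0.078) or 3 (0.073). CCND3, cyclin D3, did not pass (log2 difference 0.00, 95% interval -0.10 to 0.11), nor did CDC25A, the phosphatase that removes inhibitory phosphates from CDK2 (log2 difference 0.14, 95% interval -0.02 to 0.31).

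In the E2F and retinoblastoma family 4 of the 5 tested members rose. E2F8, an atypical E2F that represses E2F targets (chr11:19224063-19241620, minus strand, GRCh38), measured 43.7, 44.5 and 51.0 CPM in the controls and 63.2, 67.8 and 72.1 CPM in the knockdowns. The groups stood well apart (46.4 ± 4.03 to 67.7 ± 4.45 CPM, 1.46-fold, log2 0.55, SE 0.06, edgeR adjusted p = 7.1e-07). E2F3, a transcriptional activator, went from 58.4, 61.8 and 59.8 CPM to 72.1, 72.2 and 73.4 CPM (1.21-fold, edgeR adjusted p = 0.00013), again without overlap. Of the pocket proteins, which bind E2Fs, RBL1 and RB1 rose. RBL1, which encodes p107, measured 77.4, 79.2 and 87.2 CPM and 99.8, 100.9 and 102 CPM (1.24-fold, edgeR adjusted p = 4.5e-05). RB1, the retinoblastoma gene, measured 109, 99.3 and 109.7 CPM and 125, 126 and 132 CPM (1.203-fold, edgeR adjusted p = 0.0002). Neither gene's groups overlapped. Once GC content and length were fitted out, the RB1 difference was log2 0.11 (adjusted p = 0.066). The remaining pocket protein gene, RBL2, which encodes p130 and is not a member, stood at 63.9 ± 4.496 CPM in the controls and 59.7 ± 1.43 CPM in the knockdowns. It did not pass (log2 difference -0.10, edgeR adjusted p = 0.17), and with GC and length fitted out it was lower (log2 -0.18, adjusted p = 0.013).

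E2F1, the founding activator E2F and the most abundant of the family at 30.003 ± 3.89 CPM per kb in the controls, did not pass. Its libraries stood at 70.7, 79.9 and 91.6 CPM and 75.2, 75.5 and 80.04 CPM, so that the knockdowns lay inside the wide range of the controls (log2 difference -0.07, 95% interval -0.23 to 0.09). E2F2, a further activator, was counted 0 times in all 6 libraries and was not tested. A count of 0 allows up to 3 counts, or 0.0998 to 0.104 CPM a library, for counting error only. The gene is annotated on 2 sequences of the build used for counting, where a fragment that aligns to both is not counted. Of 1140 protein-coding symbols annotated on more than 1 sequence 54.6% were at 0 in all libraries, against 13.8% of the 18631 on 1 sequence, so the 0 cannot be read as absence of the transcript.

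In origin licensing 4 of 10 members rose: CDC6, MCM6, ORC1 and MCM3. CDC6, the ATPase that loads MCM2-7 (chr17:40287879-40304657, plus strand, GRCh38), stood at 61.3, 65.0 and 77.2 CPM in the controls and 91.8, 93.2 and 105 CPM in the knockdowns. All knockdown libraries were above all controls (67.8 ± 8.29 to 96.5 ± 7.04 CPM, 1.42-fold, log2 0.51, SE 0.08, edgeR adjusted p = 0.0002). ORC1, the subunit of the origin recognition complex whose level varies through the cycle, measured 10.9, 11.5 and 14.4 CPM and 14.4, 15.3 and 16.9 CPM (1.27-fold, SE of log2 0.09, edgeR adjusted p = 0.007). The highest control was level with the lowest knockdown to the digits shown, and the call was lost without control library 2 (adjusted p = 0.062). ORC6, the smallest subunit, did not pass (log2 difference 0.11, 95% interval -0.07 to 0.28). CDT1, which works with CDC6 in loading, had 40.2, 47.1 and 50.4 CPM and 47.5, 46.0 and 47.1 CPM, and did not pass (log2 difference 0.03, 95% interval -0.11 to 0.17).

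Of the 6 subunits of the MCM2-7 ring, MCM6 and MCM3 rose and the others did not pass. MCM6 measured 119, 119 and 141 CPM in the controls and 152, 149 and 157 CPM in the knockdowns, without overlap (126 ± 12.7 to 153 ± 4.36 CPM, 1.21-fold, log2 0.27, SE 0.06, edgeR adjusted p = 0.0008). MCM3, the most abundant subunit per length, measured 212, 221 and 248 CPM and 248, 247 and 259 CPM. Its groups overlapped at the top of the controls and the rise was small (1.11-fold, edgeR adjusted p = 0.036), and the call was lost without control library 1 (adjusted p = 0.18) or 2 (0.15), or knockdown library 1 (0.065) or 3 (0.12). MCM2, MCM4, MCM5 and MCM7 did not pass, with log2 differences of -0.10, 0.10, 0.01 and -0.04. For MCM5 the 95% interval was -0.09 to 0.12 and for MCM7 it was -0.14 to 0.06. Levels per kb of exon in the controls differed within the ring. They were 11.4 ± 0.735 CPM per kb for MCM5, 17.01 ± 1.16 for MCM2, 20.5 ± 1.70 for MCM4 and 30.6 ± 3.08 for MCM6. MCM7 stood at 45.1 ± 2.07 and MCM3 at 62.2 ± 5.24. These levels depend on the merged exon length, 7268 bases for MCM5 and 4715 for MCM2, whose mean control levels were 82.7 and 80.2 CPM. Of the exon bases of MCM2, 23.6% also belong to another symbol, and fragments there were not counted.

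**Figure D2:**
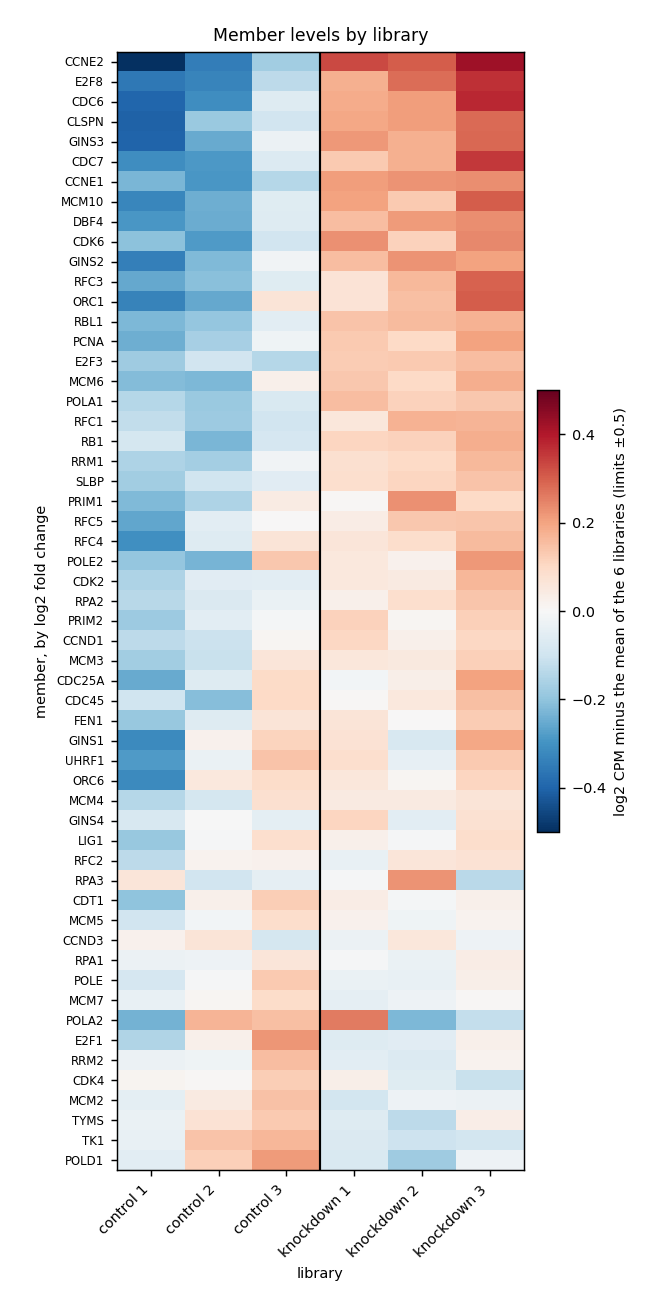
Log2 CPM of each tested member in each library, minus that member's mean over the 6 libraries, ordered by log2 fold change (colour limits ±0.5). The knockdown columns are red for the upper members, from CCNE2 down, and among the controls column 1 is the lowest in 44 members and column 3 the highest in 51.

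In origin firing and fork assembly 6 of 9 members rose, by 1.302-fold to 1.37-fold, and the role's median log2 fold change was 0.40. CDC7 and DBF4 encode the kinase and its activating subunit that phosphorylate MCM2-7. CDC7 measured 34.9, 35.5 and 41.3 CPM and 47.5, 48.9 and 55.4 CPM (1.36-fold, log2 0.44, SE 0.07, edgeR adjusted p = 4.8e-05). DBF4 measured 32.5, 33.5 and 38.1 CPM and 44.3, 46.1 and 46.6 CPM (1.32-fold, edgeR adjusted p = 2.3e-05). Kinase and activator both rose, each without overlap of the groups. CLSPN, claspin, a fork protein needed for checkpoint signalling (chr1:35720218-35769978, minus strand, GRCh38), had 19.9, 23.2 and 24.7 CPM in the controls and 30.2, 30.5 and 32.1 CPM in the knockdowns (22.6 ± 2.43 to 30.9 ± 1.04 CPM, 1.37-fold, edgeR adjusted p = 2.6e-05). MCM10, which helps to activate the loaded helicase, had 26.8, 28.4 and 32.2 CPM and 38.6, 36.8 and 41.4 CPM (1.34-fold, edgeR adjusted p = 4e-05). In both genes every knockdown library exceeded every control.

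The GINS complex of 4 subunits travels with the helicase, and 2 of them rose. GINS2 stood at 13.4, 14.6 and 16.8 CPM and 18.9, 19.9 and 19.5 CPM (1.302-fold, edgeR adjusted p = 0.00054). GINS3 stood at 15.2, 16.9 and 19.6 CPM and 23.3, 22.7 and 24.5 CPM (1.36-fold, edgeR adjusted p = 0.00011). Neither overlapped between groups. GINS1 and GINS4 did not pass, with log2 differences of 0.12 (95% interval -0.11 to 0.34) and 0.09 (-0.05 to 0.23). Of the exon bases of GINS4, 23.4% also belong to other symbols, and fragments there were not counted. Per kb the controls held 6.57 ± 0.989 CPM of GINS1, 4.64 ± 0.532 of GINS2, 3.64 ± 0.101 of GINS4 and 3.38 ± 0.438 of GINS3, and the knockdowns 6.04 ± 0.154 of GINS2 and 4.60 ± 0.177 of GINS3. CDC45, the other partner of the helicase and the most abundant member of the role per length, had 39.1, 36.1 and 44.9 CPM and 42.1, 43.5 and 46.5 CPM, with overlapping groups (log2 difference 0.14, 95% interval -0.00 to 0.28, edgeR adjusted p = 0.12). Among the fits that left out 1 library, CDC45 passed only without its highest control, library 3 (edgeR adjusted p = 0.0055).

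**Figure D3:**
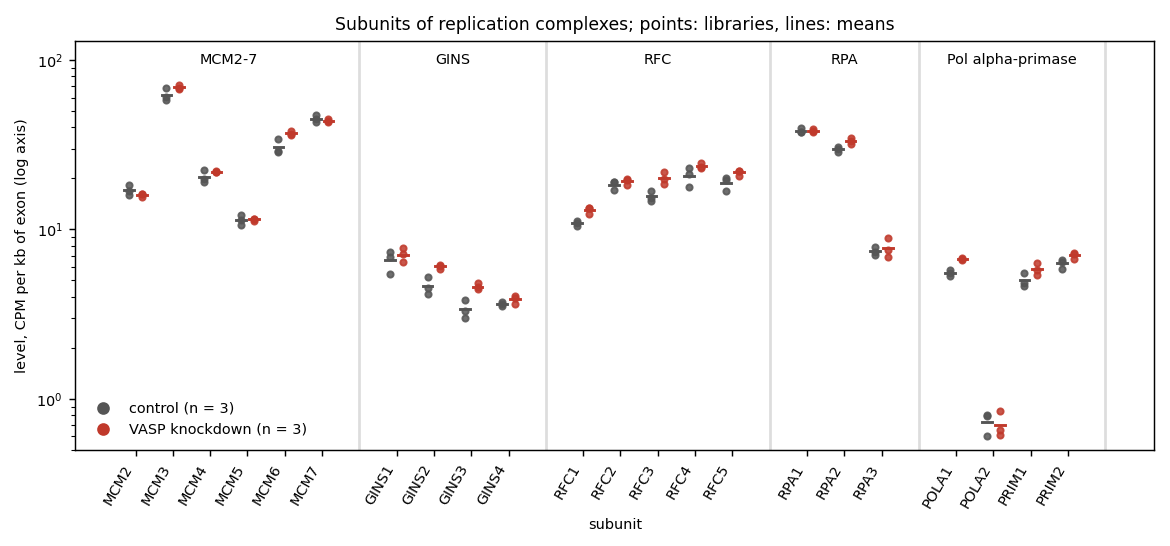
Level of each subunit of 5 replication complexes in CPM per kb of exon on a log axis; points are single libraries, grey for control and red for VASP knockdown (3 each), and lines are means. Within the MCM2-7 ring only MCM6 has its red points wholly above the grey ones, and POLA2 lies lowest of all subunits drawn.

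Among polymerase genes, 3 of 7 members rose, all in the polymerase alpha and primase complex, and 1 fell. POLA1, the catalytic subunit of polymerase alpha, which extends primers, measured 36.6, 35.5 and 38.3 CPM and 44.99, 43.8 and 44.3 CPM, without overlap (1.21-fold, log2 0.27, SE 0.06, edgeR adjusted p = 0.00048). The primase subunits PRIM1 and PRIM2 passed narrowly. PRIM1 had 13.2, 13.8 and 15.8 CPM and 15.4, 17.995 and 16.4 CPM, with overlapping groups (1.17-fold, edgeR adjusted p = 0.038). PRIM2 had 33.2, 36.3 and 37.4 CPM and 40.7, 37.9 and 40.9 CPM (1.12-fold, edgeR adjusted p = 0.038). With the GC and length correction they stood at log2 0.10 (adjusted p = 0.35) and 0.05 (adjusted p = 0.57). POLA2, the accessory subunit, was the least abundant tested member at 3.36 to 4.73 CPM, and did not pass (log2 difference -0.05, 95% interval -0.35 to 0.25). Of its exon bases, 39.4% also belong to other symbols, as do 22.2% of those of PRIM1, and fragments there were not counted.

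POLD1, the catalytic subunit of polymerase delta, which copies the lagging strand (chr19:50384204-50418018, plus strand, GRCh38), measured 69.8, 78.6 and 84.0 CPM in the controls and 68.8, 64.0 and 71.2 CPM in the knockdowns. The groups overlapped, since control library 1 lay among the knockdowns, and the fall was small (77.5 ± 7.13 to 68.0 ± 3.69 CPM, 1.14-fold lower, log2 -0.19, SE 0.06, edgeR adjusted p = 0.018). With 65.0% GC its transcript is among the members' richest in GC, and after the GC and length correction the difference was log2 0.02 (adjusted p = 0.9). POLE, the catalytic subunit of the leading-strand polymerase epsilon, did not pass (log2 difference -0.03, 95% interval -0.14 to 0.08). Its partner POLE2 did not pass either (log2 difference 0.19, 95% interval 0.01 to 0.37, edgeR adjusted p = 0.094). Among the fits that left out 1 library, POLE2 passed only without its highest control, library 3 (edgeR adjusted p = 0.0011).

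For the sliding clamp, its loader and the single-strand binding proteins, 6 of 11 members rose. PCNA, the ring that tethers polymerases to DNA, was the most abundant member per length at 119.7 ± 9.54 CPM per kb in the controls. It measured 156, 165 and 183 CPM and 203, 199 and 213 CPM, without overlap (168 ± 13.4 to 205 ± 7.53 CPM, 1.22-fold, log2 0.29, SE 0.05, edgeR adjusted p = 0.0002). RFC3, a small subunit of the clamp loader, had 42.3, 43.7 and 48.4 CPM and 53.0, 56.5 and 62.0 CPM (1.28-fold, edgeR adjusted p = 0.00014). RFC1, the large subunit, had 73.5, 70.7 and 75.0 CPM and 83.2, 90.3 and 90.2 CPM (1.203-fold, edgeR adjusted p = 0.00022). The groups of both were apart. RFC5 had 54.8, 63.3 and 65.7 CPM and 67.3, 72.2 and 72.2 CPM (1.15-fold, edgeR adjusted p = 0.011), and RFC4 had 53.6, 63.3 and 69.2 CPM and 69.2, 70.4 and 73.9 CPM (1.15-fold, edgeR adjusted p = 0.04). The groups of RFC4 overlapped slightly, at 69.20 CPM in control library 3 and 69.19 CPM in knockdown library 1. In RFC5 and RFC4 control library 1 lay far below the other controls. Without it the log2 differences were 0.13 (adjusted p = 0.080) and 0.10 (adjusted p = 0.17), in place of 0.20 and 0.20. RFC2 did not pass (log2 difference 0.06, 95% interval -0.06 to 0.18). Per kb, RFC1 was the lowest of the loader's subunits in the controls, at 10.9 ± 0.329 CPM per kb. RFC3 stood at 15.7 ± 1.13, RFC2 at 18.4 ± 1.09, RFC5 at 18.9 ± 1.78 and RFC4 at 20.7 ± 2.64 CPM per kb.

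RPA coats single-stranded DNA as a trimer. RPA2, its middle subunit, measured 56.7, 59.4 and 61.0 CPM and 63.6, 66.1 and 68.7 CPM, without overlap (1.12-fold, edgeR adjusted p = 0.017). RPA1, the large subunit, stood at 206, 206 and 219 CPM and 209, 205 and 215 CPM and did not pass (log2 difference -0.00, 95% interval -0.10 to 0.10), and RPA3, the small subunit, did not pass either (log2 difference 0.06, 95% interval -0.10 to 0.22). FEN1, which trims Okazaki fragments, and LIG1, the ligase that joins them, did not pass, with log2 differences of 0.13 (95% interval 0.01 to 0.24) and 0.07 (-0.06 to 0.20).

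Of the 4 enzymes of deoxynucleotide supply, RRM1 rose and TK1 fell. RRM1, the large subunit of ribonucleotide reductase, measured 197, 194 and 217 CPM and 232, 235 and 245 CPM, without overlap (203 ± 12.1 to 237 ± 6.84 CPM, 1.17-fold, edgeR adjusted p = 0.00099). RRM2, the small subunit, whose level limits the enzyme outside S phase, stood at 207, 207 and 234 CPM and 203, 201 and 213 CPM and did not pass (log2 difference -0.07, 95% interval -0.18 to 0.04). TK1, the thymidine kinase of proliferating cells (chr17:78174091-78187233, minus strand, GRCh38), was the most abundant enzyme of the role per length, 75.9 ± 5.78 CPM per kb in the controls. It measured 128, 145 and 147 CPM and 125, 122 and 123 CPM, and every knockdown library was below every control (140.0 ± 10.7 to 123 ± 1.26 CPM, 1.13-fold lower, log2 -0.18, SE 0.05, edgeR adjusted p = 0.008). Corrected for GC and length, the TK1 difference was log2 -0.01 (adjusted p = 0.93). TYMS, thymidylate synthase, did not pass (log2 difference -0.11, 95% interval -0.23 to 0.01). Of its exon bases, 47.5% are shared with other symbols, ENOSF1 and TYMSOS, and were not counted.

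The last role joins chromatin and histone mRNA. SLBP, which binds the stem-loop of histone mRNAs and is made in S phase, measured 112, 118 and 121 CPM and 134, 136 and 139 CPM, without overlap (117 ± 4.73 to 136 ± 2.74 CPM, 1.17-fold, log2 0.22, SE 0.05, edgeR adjusted p = 0.00079). UHRF1, which brings the maintenance methyltransferase to replicated DNA, had 69.1, 82.1 and 92.8 CPM and 89.0, 81.7 and 92.0 CPM, with the knockdowns inside the range of the controls (log2 difference 0.11, 95% interval -0.12 to 0.33).

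Pairs of members could be compared inside each library, where scaling cancels. The 7 pairs below were chosen after their values were seen and are given without a test. Fragments of CDC6 per fragment of CDT1 were 1.53, 1.38 and 1.53 in the controls and 1.93, 2.03 and 2.22 in the knockdowns. CCNE2 per CCNE1 was 0.700, 0.836 and 0.849 and then 0.945, 0.915 and 0.989. CDK6 per CDK4 was 0.456, 0.434 and 0.455 and then 0.607, 0.598 and 0.677. In each of these the knockdown libraries were all higher. E2F8 per E2F1 was 0.618, 0.557 and 0.557 in the controls and 0.840, 0.899 and 0.900 in the knockdowns. MCM6 per MCM7 was 0.630, 0.606 and 0.680 and then 0.806, 0.777 and 0.804. RRM1 per RRM2 was 0.953, 0.938 and 0.925 and then 1.14, 1.17 and 1.15. The ratio of the reductase subunits had a mean of 0.939 ± 0.0143 in the controls and 1.15 ± 0.0145 in the knockdowns (SD, n = 3 each), and its genes have similar GC content, 43.5% and 45.8%. PCNA per POLD1 was 2.24, 2.10 and 2.18 and then 2.95, 3.11 and 2.99. With the GC and length correction the log2 difference of these ratios was 0.22 for CDC6 and CDT1 (0.48 as counted), 0.05 for the E cyclins (0.26), 0.31 for CDK6 and CDK4 (0.48), 0.41 for E2F8 and E2F1 (0.61), 0.15 for MCM6 and MCM7 (0.32), 0.25 for RRM1 and RRM2 (0.30) and 0.24 for PCNA and POLD1 (0.47).

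**Figure D4:**
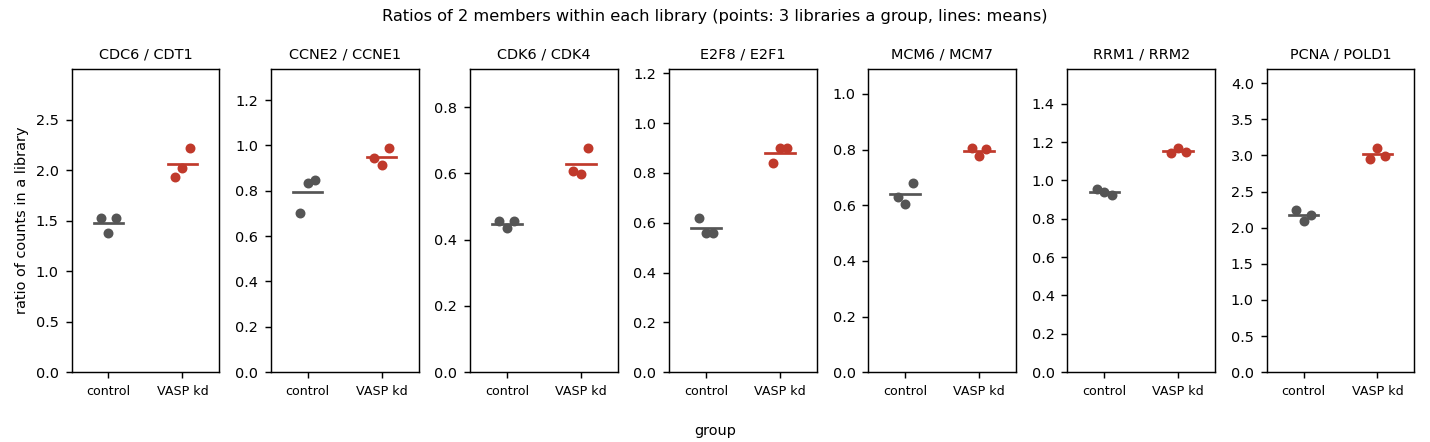
Ratio of the counts of 2 members within each library for 7 pairs, each with its own axis from 0; points are libraries (3 a group) and lines are means. In each panel the 3 knockdown libraries lie above the 3 controls, narrowly for CCNE2 over CCNE1, where the highest control is 0.849 and the lowest knockdown 0.915.

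Differences between the groups moved with the GC content of the transcripts, over all genes as well as the members. Spearman's rho between GC content and log2 fold change was -0.41 across 16207 genes and -0.71 across the 56 members, as a description across genes, which are not independent replicates. The median GC content was 44.0% in the members that rose and 53.6% in the others. Of the 19 members under 45% GC, 17 rose, with a median log2 fold change of 0.27, beside 36.4% of the 6203 genes in that range, whose median was 0.13. Between 45% and 55% GC 13 of 27 members rose (median 0.14), beside 12.2% of 5623 genes (median -0.02). Of the 10 members at 55% GC or more, POLD1 and TK1 fell and the others did not pass (median -0.04), beside 37.2% of 4381 genes lower, 4.02% higher and a median of -0.17.

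With GC content and merged exon length fitted out of each library, 27 members were higher by edgeR's adjusted p, beside 13.3% of all genes. Over all tested members the median log2 fold change was still 0.16. Spearman's rho between GC content and the corrected log2 fold change was -0.37 across the members, so a trend with GC content remained among them. Neither POLD1 nor TK1 kept its call, beside 14.9% of all genes lower. Of the 30 risers 25 kept theirs, RB1, PRIM1, PRIM2, RFC4 and RFC5 did not, and CDT1 (log2 0.24, adjusted p = 0.02) and FEN1 (log2 0.18, adjusted p = 0.03) were added. Among risers that kept the call, the corrected difference was smaller by over 1.5 times for DBF4 (0.40 to 0.26), RBL1 (0.31 to 0.18), RFC1 (0.27 to 0.16), RFC3 (0.35 to 0.21) and RRM1 (0.23 to 0.15). CCNE1, with 52.9% GC, moved the other way, from 0.44 to 0.49. E2F8, CDC6 and CCNE2 stood at 0.51, 0.46 and 0.54 after correction. When only changes beyond 1.2-fold were tested for, CCNE1, CCNE2, E2F8, CDC6, CDC7 and CLSPN passed upward, 6 of 56 members, beside 1.95% of all genes.

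**Figure D5:**
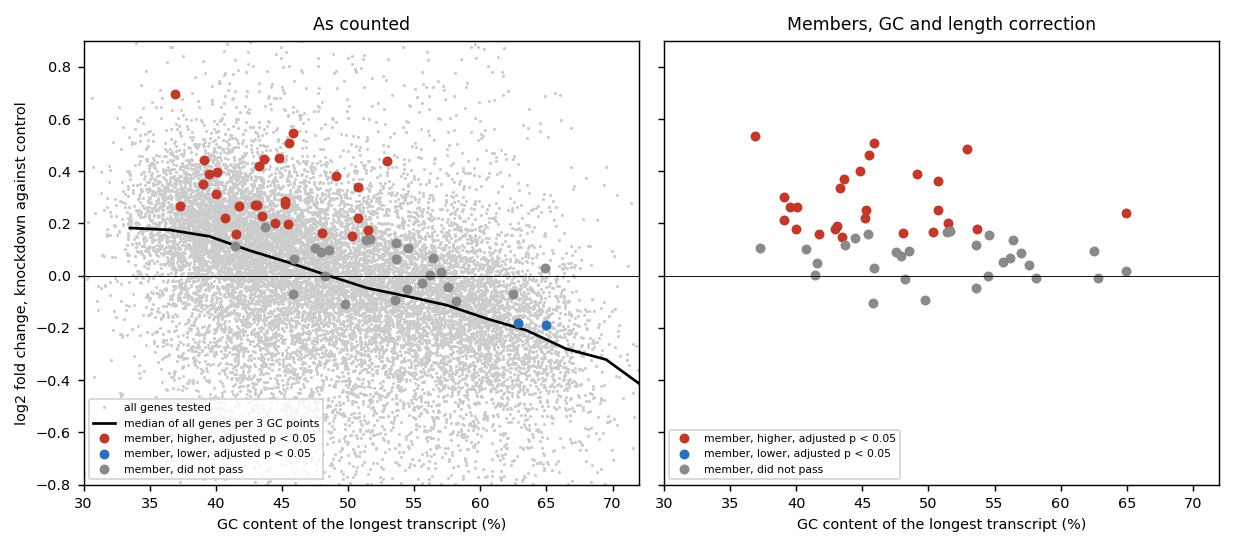
Log2 fold change, VASP knockdown against control, by GC content of the longest transcript, as counted (left, with all tested genes within the axis in light grey and their running median in black) and for the members after the GC and length correction (right). Red members are higher and blue members lower at an adjusted p under 0.05; the running median of all genes slopes downward, and after correction 27 members are red.

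Of 68 other genes of the same steps, listed by function with earlier results of these data known, 64 were tested. Of these 31 rose and 4 fell, and the median log2 fold change was 0.15. Those shares, 48.4% and 6.25%, stand beside the 18.9% and 18.3% of all genes. With GC and length fitted out 21 were higher and 6 lower, beside 13.3% and 14.9% of all genes, and 18 of the 31 kept their call. Of the CDK inhibitors and G1/S proteolysis genes 5 of 9 tested rose, led by SKP2, the ubiquitin ligase subunit that targets p27 (1.15-fold, edgeR adjusted p = 0.0061), CDKN1B, which encodes p27 (1.13-fold), CCND2, cyclin D2 (1.23-fold), and CKS1B, the cofactor of SKP2 (1.11-fold). In the corrected fit SKP2 (log2 0.09, adjusted p = 0.2), CKS1B (log2 0.09, adjusted p = 0.11) and the fifth riser, FBXW7 (log2 0.17, adjusted p = 0.059), a ubiquitin ligase subunit that targets cyclin E, lost their calls. CDKN1A, which encodes p21, stood at 64.7 ± 1.90 CPM in the controls and 65.6 ± 0.684 CPM in the knockdowns and did not pass (log2 difference 0.02, 95% interval -0.08 to 0.12). CDKN2A and CDKN2B had no counts in any library, with the same upper limit as for E2F2. Of 14 other E2F, DP and DREAM genes 4 rose and 1 fell. They include the MuvB subunits LIN9 (1.39-fold, edgeR adjusted p = 0.00017), LIN54 (1.21-fold) and LIN52 (1.22-fold), and TFDP2, a dimerisation partner of E2Fs, which fell (1.14-fold lower, edgeR adjusted p = 0.0054). The MuvB subunits LIN37 (log2 difference 0.22, edgeR adjusted p = 0.38) and RBBP4 (0.03, edgeR adjusted p = 0.63) did not pass. Corrected, LIN54 went from log2 0.28 to 0.13 (adjusted p = 0.047), and 4 genes of this list were lower.

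Of 14 other licensing and firing genes 9 rose and 1 fell. RECQL4, a helicase that takes part in initiation, fell 1.302-fold (edgeR adjusted p = 1e-05), while TOPBP1 (1.26-fold) and MTBP (1.298-fold), which act in origin firing, and GMNN, geminin, the inhibitor of CDT1 (1.34-fold, edgeR adjusted p = 0.00037), rose. These 4 kept their calls in the corrected fit, where RECQL4 went from log2 -0.38 to -0.16 and MTBP from 0.38 to 0.21. Of the 9 risers of this list, only 5 kept theirs. Of 16 other fork and polymerase genes 7 rose and 2 fell, TOP1 and CHTF18. TOP1, topoisomerase I, which relaxes supercoils ahead of the fork, stood at 292, 283 and 322 CPM in the controls and 184, 186 and 184 CPM in the knockdowns. Every knockdown library was far below every control (1.62-fold lower, log2 -0.69, SE 0.05, edgeR adjusted p = 3e-10, log2 -0.79 once GC and length were fitted out). TOP2A, topoisomerase II alpha, rose instead (1.36-fold, edgeR adjusted p = 7.1e-07), as did POLD3, an accessory subunit of polymerase delta (1.298-fold), and DSCC1 of an alternative clamp loader (1.44-fold). CHTF18, the large subunit of that loader, was 1.22-fold lower (edgeR adjusted p = 0.0016) and lost its call in the corrected fit (log2 -0.08, adjusted p = 0.43). Of 11 tested genes of nucleotide supply and chromatin assembly 6 rose, with DCK, deoxycytidine kinase (1.23-fold, edgeR adjusted p = 5.8e-05), RRM2B (1.13-fold), the histone chaperone ASF1A (1.14-fold) and DNMT1, the maintenance methyltransferase (1.12-fold), in front. In the corrected fit RRM2B (log2 0.02, adjusted p = 0.85) and ASF1A (log2 0.03, adjusted p = 0.71) lost their calls, and DCK went from log2 0.30 to 0.16.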

How the data were processed

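The authors deposited 1 table of fragment counts per gene symbol, not normalized. Per the file headers, featureCounts 1.6.4 counted read pairs over GENCODE 32 exons on GRCh38, patches included, with no option for strand, multi-mapping or multi-overlap. The submitters' processing notes list STAR 2.7.1a and Trim Galore 0.6.4, with settings not given in the sources used here. None of the deposited values is an estimated count: all 6 columns hold whole numbers.

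Counts were tested with edgeR 4.0.16 in R 4.3.3 (filterByExpr, TMM, robust quasi-likelihood, 2-sided, Benjamini-Hochberg over 16633 genes, threshold 0.05, biological coefficient of variation 4.81%), after the script was tested on simulated data. Intervals are 95%. CPM per kb divides by merged exon length, which covers all annotated transcripts and includes bases shared with other symbols. Ranks by this measure therefore also depend on the annotation. GC content is that of the longest transcript of a symbol in a GENCODE release earlier than that of the counts. It was found for 16207 tested genes, and was corrected with length by natural splines of 5 degrees of freedom per library. Alternatives were relative log expression and upper-quartile scaling, no filter, 1 CPM in 3 libraries, a null of 1.2-fold, DESeq2 1.42.0 and leaving out each library. Leaving out mitochondrial genes was added after seeing the data.

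Every member is named. Values in every library are given for VASP, up to 4 members of each role with the smallest p past the threshold and the most abundant of each role, and for further members to show where groups overlap. Up to 4 genes past the threshold are named from each other list. RBL2, CDKN1A, LIN37, RBBP4, FBXW7 and CHTF18 were named after their values were seen. Members and lists were chosen with earlier results of these data known. Promoters came from RefSeq (GRCh38.p14).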

Additional observations from a re-analysis of the deposited data

How the results depend on the processing

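The members that rose numbered 30 by edgeR, 26 with upper-quartile scaling, 29 with DESeq2, 33 with no filter and 27 after the GC and length correction, and 30 with relative log expression, with 1 CPM in 3 libraries or without mitochondrial genes. Of the 30, 20 passed under every alternative except the null of 1.2-fold. Leaving out 1 library gave 23 to 36 members higher and 0 to 3 lower, 21 to 34 of the other listed genes higher and 3 to 5 lower, and 2238 to 3249 of all genes higher and 2243 to 3150 lower. The 0 came without control library 2, by edgeR, where 2 were lower at an unadjusted p under 0.05. The GC and length correction left 0 members lower by edgeR (1 at an unadjusted p under 0.05; DESeq2 without the correction gave 2). With the null of 1.2-fold, which asks for a larger change, edgeR gave 6 members higher and 0 lower (0 at an unadjusted p under 0.05), 3 other genes higher and 1 lower, and 324 of all genes higher and 629 lower.

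No called member changed sign under these alternatives except POLD1 (log2 0.016 after the GC and length correction). Among those that did not pass, the correction gave E2F1 0.093, MCM7 0.039 and POLE 0.051. Upper-quartile scaling gave CCND3 -0.023 and MCM5 -0.011, and 1 CPM in 3 libraries gave CCND3 -0.0021. RPA1 stood at 0.019 with no filter and at 0.0096 with DESeq2. Leaving out 1 library gave ranges that crossed 0 for CCND3 (-0.041 to 0.033), E2F1 (-0.16 to 0.032), ORC6 (-0.012 to 0.18), CDT1 (-0.056 to 0.10), MCM5 (-0.030 to 0.063), GINS1 (-0.0011 to 0.20), POLA2 (-0.21 to 0.056), POLE (-0.076 to 0.033), RPA1 (-0.019 to 0.028), RPA3 (-0.031 to 0.14) and LIG1 (-0.0019 to 0.13). The cause was not tested.

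With edgeR's adjusted p in parentheses, single libraries changed these calls. The fit without control library 1 lost CCND1 (0.081), MCM3 (0.18), PRIM1 (0.16), PRIM2 (0.17), RFC4 (0.17), RFC5 (0.08) and RPA2 (0.068) and gained MCM2 (0.048, lower). The fit without control library 2 lost CCND1 (0.091), ORC1 (0.062), MCM3 (0.15), PRIM1 (0.14), PRIM2 (0.069), POLD1 (0.087), RFC4 (0.1) and TK1 (0.055). The fit without control library 3 lost POLD1 (0.097) and gained CDC25A (0.017), MCM4 (0.0084), CDC45 (0.0055), POLE2 (0.0011), FEN1 (0.0052) and UHRF1 (0.011). The fit without knockdown library 1 lost CCND1 (0.078), MCM3 (0.065), PRIM2 (0.12) and RFC4 (0.057). The fit without knockdown library 2 lost PRIM1 (0.16), POLD1 (0.14) and RFC4 (0.061). The fit without knockdown library 3 lost CCND1 (0.073), CDK2 (0.071), MCM3 (0.12), PRIM1 (0.057), PRIM2 (0.12), RFC4 (0.097) and RPA2 (0.093).

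No paired analysis was possible because the control columns do not carry the replicate numbers of the titles. Depth limits POLA2, at 98 to 145 counts a library, more than the other tested members. Its counts also leave out fragments on the 39.4% of its exon bases that it shares with other symbols.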
